A study of Mus musculus with 12 samples.

Results

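The myelin genes Mbp, Mog, Mag, Mobp, Cnp, Mal, Cldn11, Ermn and Gjb1 were examined in bulk RNA-seq of the brain of 12 mice. The 9 genes were listed by name as myelin and oligodendrocyte genes. The deposited count table carries no gene names, so a gene could be included only if its mean normalized count matched a single entry of the differential expression table published with the study. All 9 genes were recovered, among 1349 named genes of the 15928 in the table. That published table holds the genes with the smallest p-values between genotypes, and 81.3% of the named genes had an unadjusted p under 0.05 for the same contrast here. The 9 genes were therefore in effect selected on the difference between Tg and Wt mice. Their Tg and Wt levels are given as a description that supports nothing further. The sex, batch and interaction contrasts and the variation within a genotype were not used to recover the names, but they come from the same 12 mice, with sex and batch unevenly spread over the genotypes, so they are not independent of the selection.

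The wild type (Wt) group held 5 mice. The Tg2576 (Tg) group held 7 mice, which carry a transgene for human amyloid precursor protein with the Swedish double mutation. All animals were labelled as 11 months old, and none received a treatment according to the labels, although the study's methods give a wider age range. Each library came from total RNA of 1 piece of brain with both dorsal hippocampus and cortex, depleted of ribosomal RNA. In library batch 1 were a Wt female (mouse 12), Wt males (mice 41 and 95), Tg females (mice 32, 91, 92 and 93) and a Tg male (mouse 67). In batch 2 were Wt females (mice 79 and 80) and Tg males (mice 68 and 69), and within that batch the effects of genotype and sex cannot be told apart. A piece of tissue holds many cell types, so in these bulk samples a different number of oligodendrocytes and a different amount of RNA in each oligodendrocyte cannot be told apart.

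Between 15768135 and 20996174 reads were counted per mouse. App, the mouse gene whose human counterpart is the transgene, was at 1214 to 1496 CPM (counts of a gene relative to the library size, adjusted by TMM) in Wt mice and at 2991 to 5727 CPM in Tg mice, so every genotype label was matched. Xist, the RNA of the inactive X chromosome, went against 1 label. Wt mouse 41 was labelled male and had 199 CPM of Xist, inside the range of 150 to 233 CPM in the mice labelled female, while the other 4 mice labelled male had at most 0.0563 CPM. The fits that use sex were therefore repeated with mouse 41 entered as a female, some of them chosen after the data were seen.

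Myelin is the sheath of tightly wrapped membrane that oligodendrocytes lay around axons in the central nervous system. Its compact layers are held together by membrane proteins and by basic proteins on the cytoplasmic side, while the innermost and outermost layers, the channels of cytoplasm and the junctions between layers use other proteins. Mature oligodendrocytes transcribe the genes for these proteins together, at very high levels, and keep doing so in the adult brain, since myelin is maintained throughout life. White matter tracts hold far more of these cells than cortical grey matter does, and the corpus callosum and alveus lie between the cortex and the hippocampus.

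The bases before the start of each gene were read from RefSeq promoters of GRCm38.p6, as a description apart from the variation between mice. Promoters were listed for 8 of the genes, and Mbp had no entry. The 250 bases before each start were searched on both strands for ACAAAG and ACAATG, letters that factors of the SOX family can bind, for CAGCTG, an E-box, and for TATAAA, the TATA box. Printed regions end where the first start of either annotation lies, which leaves 215 bases for Mobp and Cnp and 250 for Mag and Mog. The following regions are shown for Mobp, Mag and Cnp, which hold ACAAAG, and for Mog, which holds none of the 4 motifs, in the direction of transcription, with the motif in capitals on whichever strand it was found (CTTTGT is ACAAAG on the other strand). The regions are chr9:120149492-120149706 (plus strand) for Mobp, chr7:30914923-30915172 (minus strand) for Mag, chr11:100574689-100574903 (plus strand) for Cnp and chr17:37023399-37023648 (minus strand) for Mog.
Mobp: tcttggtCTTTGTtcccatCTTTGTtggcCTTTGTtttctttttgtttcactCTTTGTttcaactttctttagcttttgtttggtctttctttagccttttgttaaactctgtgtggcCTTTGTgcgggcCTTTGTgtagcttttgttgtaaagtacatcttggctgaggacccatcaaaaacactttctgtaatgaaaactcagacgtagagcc
Mag: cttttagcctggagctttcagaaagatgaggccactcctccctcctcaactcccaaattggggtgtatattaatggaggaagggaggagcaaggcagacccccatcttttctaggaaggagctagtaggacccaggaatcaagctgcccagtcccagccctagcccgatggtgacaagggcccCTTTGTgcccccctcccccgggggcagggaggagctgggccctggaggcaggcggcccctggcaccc
Cnp: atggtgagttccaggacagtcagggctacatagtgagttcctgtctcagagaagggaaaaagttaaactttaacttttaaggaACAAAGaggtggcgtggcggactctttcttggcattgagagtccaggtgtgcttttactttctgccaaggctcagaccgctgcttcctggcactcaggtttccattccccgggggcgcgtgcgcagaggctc
Mog: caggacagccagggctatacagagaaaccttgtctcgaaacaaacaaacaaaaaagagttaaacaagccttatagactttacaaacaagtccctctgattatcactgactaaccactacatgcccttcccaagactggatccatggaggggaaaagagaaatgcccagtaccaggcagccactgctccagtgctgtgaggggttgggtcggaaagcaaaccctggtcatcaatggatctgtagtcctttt
ACAAAG was found before a start of Mag, Mobp, Cnp and Gjb1, which is 4 of 8 genes and 6 of their 13 promoters, against 16.5% of all 32536 promoters. A gene with several listed promoters, such as Mag or Gjb1, has more chances to hold a motif. The counts of genes are therefore not like the shares of promoters, and no share over genes was computed. Overlapping windows of 1 gene can count the same site again, as they do for Mag. The Mobp region shown held 6 copies, which begin 208, 196, 186, 163, 97 and 85 bases before the end of the printed letters, and the RefSeq promoter they lie in was the only promoter of the 32536 with as many (0.00307%). ACAATG was found for Ermn and Gjb1 (10.5% of all promoters), TATAAA for Gjb1 (12.3%), and CAGCTG for none of the 8 genes (13.1%). A match of 6 letters is a description of the sequence and was not tested as a binding site.

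Mbp lies on chromosome 18 of GRCm38 (82475146 to 82585637, plus strand), Mog on chromosome 17 (37010743 to 37023398, minus strand) and Mag on chromosome 7 (30899176 to 30914873, minus strand). Mobp lies on chromosome 9 (120149707 to 120181484, plus strand), Cnp on chromosome 11 (100574904 to 100591729, plus strand) and Cldn11 on chromosome 3 (31149920 to 31164324, plus strand). Mal (127633226 to 127656695) and Ermn (58045113 to 58052864) both lie on the minus strand of chromosome 2, and Gjb1 lies on the plus strand of chromosome X (101376378 to 101385629). The genes are thus spread over 8 chromosomes, and the closest pair, on chromosome 2, lies far apart. The spans of 5 of the genes overlap another annotated gene, and in 3 of these exons overlap exons. Exons of Cnp share 154 bases with Dnajc7 and exons of Ermn 237 bases with Galnt5, both on the opposite strand, and exons of Mobp share 79 bases with Gm38642 on the same strand. Mbp overlaps the pseudogene Rpl21-ps8 and Mog overlaps Gm22388, on the opposite strand and with 0 shared exon bases. Whether reads were counted by strand is not given in the sources used here, so reads from the shared exons of Cnp, Ermn and Mobp may not have been separated.

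Expression per length of exon spanned a wide range, in an order that was mostly the same in each mouse. Mbp was the highest, at 176 ± 96.7 CPM per kilobase (SD, n = 12), and was above Cnp, the next in the order (63.4 ± 29.5), in 12 of 12 mice. Mobp (48.1) and Cldn11 (47.7) came next and did not differ beyond their spread, with Mobp above Cldn11 in 6 of 12 mice. Mal (28.7 CPM per kilobase) was below Cldn11 in 12 of 12 mice and above Mag (24.1) in 11. Mag and Mog (22.4) again did not differ beyond it, since Mag was the higher in 6 of 12 mice. Gjb1 (8.55) was below Mog in 12 of 12 mice and above Ermn (6.24), the lowest of the 9, in 8, so that these did not differ beyond their spread. All 9 genes were well counted, with 72 reads for Gjb1 in its lowest mouse and 55417 for Mbp in its highest.

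Mbp encodes myelin basic protein, which binds the cytoplasmic faces of the membrane to each other in compact myelin. Among the Wt mice Mbp was at 1863 CPM in mouse 12, 565 in mouse 41, 959 in mouse 79, 690 in mouse 80 and 741 in mouse 95. Among the 7 Tg mice the lowest value was 680 CPM, the median 1882 and the highest 2999. The groups overlapped: 4 Tg mice were above all Wt mice, mouse 92 (1631 CPM) and mouse 67 (1064) were above every Wt mouse but mouse 12, and mouse 93 (680) was below all Wt mice but mouse 41. The means were 964 ± 523 CPM in Wt (SD, n = 5) and 1861 ± 809 in Tg (SD, n = 7). The log2 fold change with sex and batch in the model was 1.004 (SE 0.36), and the p adjusted by the Benjamini-Hochberg method was 0.611 in the quasi-likelihood test of edgeR. Mobp, the gene of the other basic protein of compact myelin, was at 392 CPM in Wt mouse 12, 99.2 in mouse 41, 195 in mouse 79, 193 in mouse 80 and 150 in mouse 95. Its Tg values ran from 160 CPM through a median of 453 to 688. As for Mbp, 4 Tg mice were above all Wt mice. The log2 fold change of Mobp was 1.10 (SE 0.35, adjusted p = 0.611, edgeR).

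Mag and Mog encode adhesion proteins of the immunoglobulin family that sit outside compact myelin, Mag in the layer next to the axon and Mog on the outer surface of the sheath. Mag was at 130 CPM in Wt mouse 12, 36.8 in mouse 41, 64.1 in mouse 79, 51.7 in mouse 80 and 41.6 in mouse 95, and in Tg mice its lowest value was 46.5, its median 117 and its highest 190. Only 3 Tg mice were above all Wt mice, and 4 were inside the Wt range. The log2 fold change of Mag was 0.995 (SE 0.36, adjusted p = 0.621, edgeR). Mog was at 43.9, 15.5, 28.5, 20.2 and 19.0 CPM in Wt mice 12, 41, 79, 80 and 95, and its lowest, median and highest Tg values were 19.5, 46.1 and 82.5 CPM. For Mog 5 Tg mice were above all Wt mice and 2 were within the Wt range. Its log2 fold change was 0.95 (SE 0.34, adjusted p = 0.611, edgeR).

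Cnp encodes the cyclic nucleotide phosphodiesterase found in the cytoplasm-filled channels of myelin. Cnp was at 284 CPM in Wt mouse 12, 108 in mouse 41, 177 in mouse 79, 116 in mouse 80 and 125 in mouse 95. Its Tg values ran from 126 CPM through a median of 308 to 378, with 4 mice above all Wt mice. Its log2 fold change was 0.83 (SE 0.31, adjusted p = 0.625, edgeR), and its fold range over all 12 mice, 3.49, was the smallest of the 9 genes.

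The remaining genes encode membrane and cytoskeletal proteins. Mal, a proteolipid that takes part in the sorting of membrane cargo, was at 29.6 to 82.3 CPM in Wt mice (median 61.1) and at 43.5 to 147 in Tg mice (median 96.2). Cldn11, the claudin of the tight junctions between myelin layers, was at 33.1 to 114 CPM in Wt (median 44.9) and at 49.4 to 170 in Tg mice (median 113). Gjb1, a connexin of gap junctions in oligodendrocytes, was at 4.26 to 20.3 CPM in Wt (median 5.23) and at 5.81 to 27.0 in Tg mice (median 19.7). For each of these genes the groups overlapped. Ermn, an actin-binding protein of mature oligodendrocytes, was at 5.55 to 25.4 CPM in Wt (median 16.04) and at 9.69 to 57.4 in Tg mice (median 23.1), and had the widest range, 10.3-fold over the 12 mice. Tg mice above all Wt mice numbered 5 for Mal and 3 each for Cldn11, Ermn and Gjb1. The log2 fold changes were 0.84 for Mal (SE 0.28), 0.935 for Cldn11 (SE 0.34), 0.92 for Ermn (SE 0.36) and 1.22 for Gjb1 (SE 0.44), with edgeR adjusted p of 0.611, 0.616, 0.637 and 0.616.

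**Figure D1:**
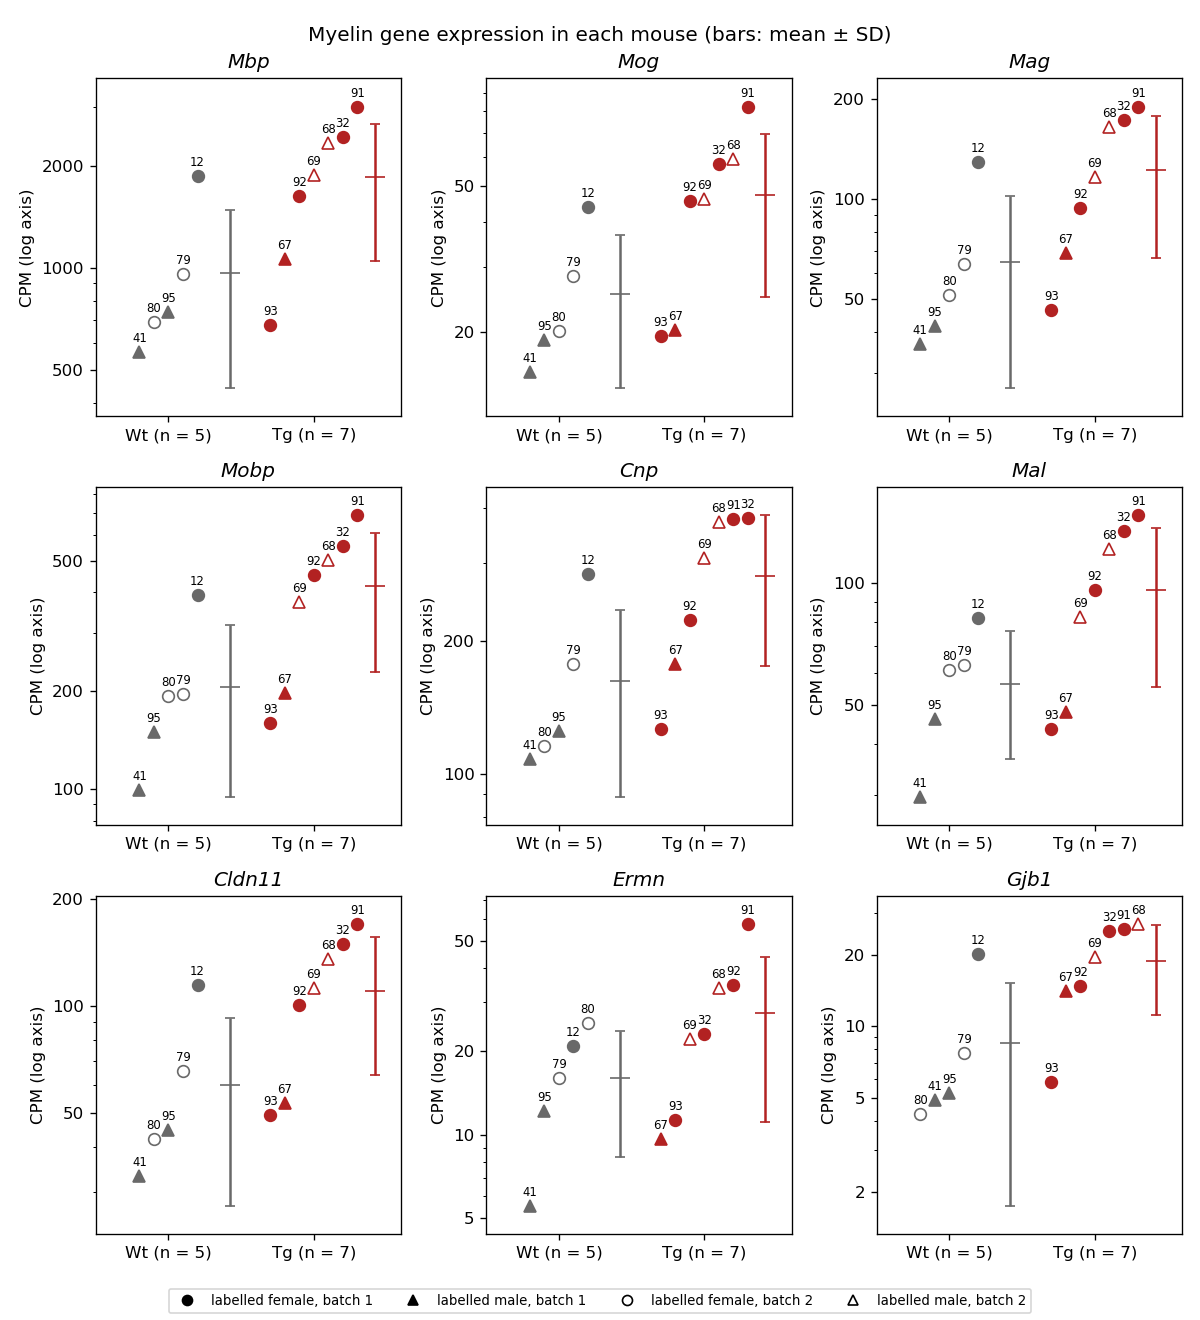
CPM of each of the 9 genes (vertical log axes) in each Wt and Tg mouse, with the mouse number above its point, circles for labelled females, triangles for labelled males, filled points for batch 1 and open points for batch 2, and bars for the mean ± SD. Wt mouse 12 sits near the middle of the Tg mice in most panels, above Tg mice 67 and 93, which sit among the Wt mice.

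Across the 9 genes the estimate was higher in Tg mice for 9 of 9, by 0.83 to 1.22 on the log2 scale (median 0.95), beside a median of -0.003 over all 15928 genes, of which 49.3% had a higher estimate. None was called at an adjusted p under 0.1, where 0.00628% of all genes, 1 gene (App), were called higher. All 9 had an unadjusted p under 0.05 (0.00704 to 0.0239), which 4.46% of all genes had in that direction, and nothing is read from this because the names were recovered from genes with a small p in this contrast. The DESeq2 Wald test called none of the 9 either (smallest adjusted p 0.302). For each of the 9 genes at least 3 Tg mice were above all Wt mice, as for 13.2% of all genes, and no gene of the 9 had all Tg mice above all Wt mice, as 0.22% of all genes had.

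The size of the estimate depended on which mice were compared. With batch 1 alone (3 Wt and 5 Tg mice) and sex in the model, the 9 log2 fold changes lay between 0.22 and 0.52 (median 0.35), and 0 of 9 had an unadjusted p under 0.05. With mouse 41 entered as a female in that fit they lay between 0.50 and 0.84 (median 0.64), again with 0 of 9 at such a p, and in all 12 mice the same change of label gave a median of 1.009. The only Wt female of batch 1, mouse 12, had 1863 CPM of Mbp and lay within the range of the Tg females of that batch, which had 680, 1631, 2431 and 2999 CPM. The Wt males of batch 1 had 565 and 741 CPM of Mbp, mouse 41 included, and the Tg male of that batch had 1064. In batch 2 the Tg males had 1882 and 2338 CPM and the Wt females 690 and 959. Both Tg mice were above both Wt mice of batch 2 in 8 of the 9 genes, all but Ermn, and in 22% of all genes. Taken as plain differences between the Tg and Wt means of log2 CPM, without sex in a model, the 9 genes gave 0.58 to 0.97 in batch 1 (median 0.78) and 0.44 to 1.99 in batch 2 (median 1.23), where genotype and sex are not separable. Without mouse 12 the median log2 fold change over the 9 genes was 1.29, the highest with any 1 mouse left out.

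The 9 genes moved up and down together from mouse to mouse, within Wt and Tg mice as well as between them. Averaged over the 9 genes, the deviation from the mean of all 12 mice in log2 CPM was highest in Tg mice 91 (1.20), 68 (0.88) and 32 (0.87) and lowest in Wt mouse 41 (-1.27). Wt mouse 12 (0.46) stood beside Tg mice 69 (0.47) and 92 (0.42). Tg mice 67 (-0.42) and 93 (-0.80) were placed among the other Wt mice, 79 (-0.34), 80 (-0.65) and 95 (-0.83). In all 9 genes mice 67 and 93 were the lowest 2 of the Tg mice, as in 6.59% of all genes, and in 8 of the 9, all but Ermn, mouse 12 was the highest of the Wt mice, as in 20.6% of all genes. These mice were singled out after their values were seen.

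**Figure D2:**
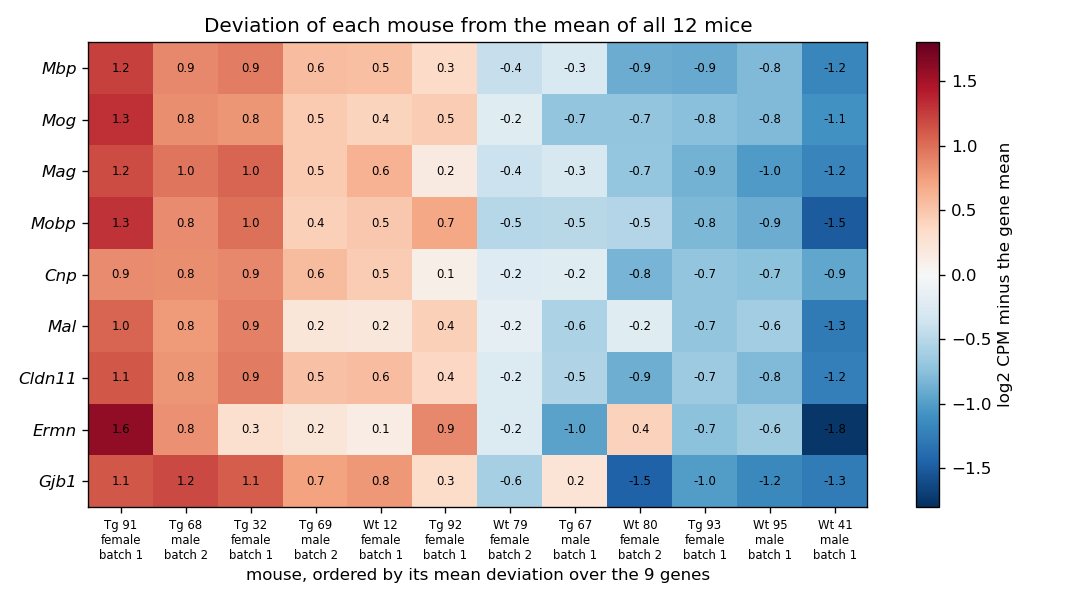
Log2 CPM minus the mean of all 12 mice (colour and printed value) for the 9 genes (rows) in each mouse (columns, ordered by the mean over the genes, with labelled sex and batch). Columns are close to uniform in colour from Mbp to Cldn11, with departures in Ermn and Gjb1, the clearest in Wt mouse 80.

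With the mean of each genotype subtracted, the Pearson correlation of log2 CPM over the 12 mice had a median of 0.94 over the 36 pairs of genes and exceeded 0.9 in 24 pairs. The highest value was 0.985 for Mbp and Mag, and the lowest 0.54 for Ermn and Gjb1. The points share library, depth and piece of tissue, so these values describe the 12 libraries and carry no p. Within the 7 Tg mice alone the median was 0.96. Within the Wt mice alone it was 0.94, with 21 pairs over 0.9 and a lowest value of 0.343, for Ermn and Gjb1. Over all 12 mice, with sex and batch removed as well as genotype, it was 0.95. The same Tg mice were the lowest in every one of these genes, and Wt mouse 12 was the highest Wt mouse in all but Ermn. The correlations therefore span those splits between mice. No median over other pairs of genes was computed. In CPM, Mag was between 5.61% and 7.49% of Mbp in every mouse (a 1.34-fold range) and Cnp between 12.5% and 19.2% (1.53-fold), while Mbp itself varied 5.31-fold.

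Ermn, and to a lesser degree Gjb1, departed from the other genes. The mean correlation with the other 8 was 0.76 for Ermn and 0.85 for Gjb1, against 0.91 to 0.94 for the rest. Gjb1 was at 0.965 with Cnp, 0.954 with Mbp, 0.945 with Mag and 0.913 with Cldn11. It was at 0.866 with Mog, 0.856 with Mobp, 0.784 with Mal and 0.542 with Ermn. After the mean of the 9 genes in each mouse was taken off, the SD over mice of log2 CPM was 0.48 for Ermn and 0.39 for Gjb1, and 0.11 to 0.20 for the others. Before that step the SD was 1.026 for Gjb1, the largest of the 9, and 0.919 for Ermn. The ratio of Ermn to Gjb1 in CPM ran from 0.689 in Tg mouse 67 to 5.96 in Wt mouse 80, an 8.65-fold range. Both are the lowest of the 9 in level. Gjb1 had 72 to 535 reads and Ermn 100 to 1060 reads per mouse.

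**Figure D3:**
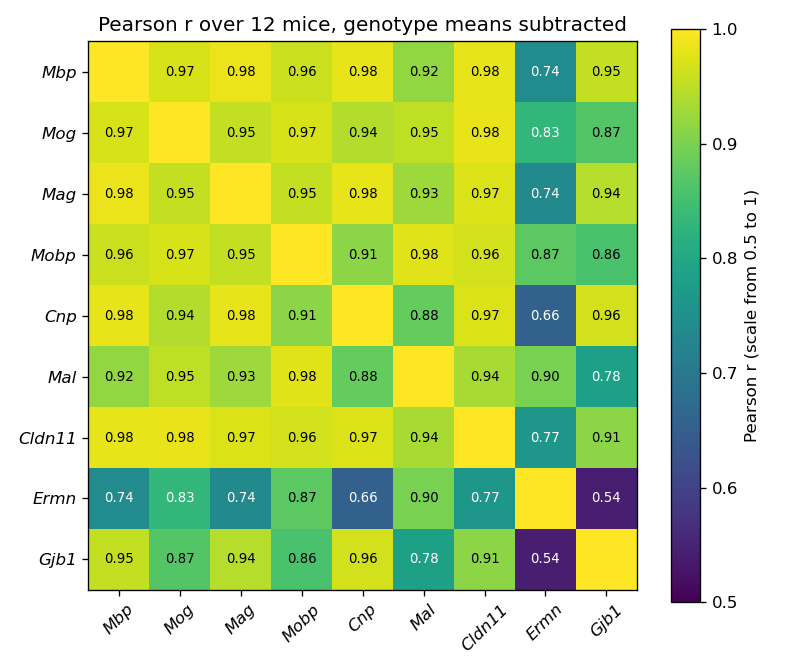
Pearson r between each pair of the 9 genes over 12 mice, with genotype means subtracted from log2 CPM (colour scale from 0.5 to 1, values printed in the cells). The row and column of Ermn hold the lowest values, down to 0.54 with Gjb1, and Mbp, Mog, Mag, Mobp and Cldn11 are all above 0.9 with each other.

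The recovery of the names did not use the contrast of males with females, although its estimate shares mice and covariates with that of genotype. All 9 genes had a lower estimate in males, with log2 fold changes from -0.95 (Ermn, SE 0.37) to -0.31 (Gjb1, SE 0.46) and a median of -0.57, beside -0.012 over all genes, of which 52.5% were lower in males. None passed an adjusted p under 0.1 in edgeR (smallest 0.40), where 0% of all genes were called lower, and 1 of the 9, Ermn, had an unadjusted p under 0.05 (0.0241), as had 5.39% of all genes in that direction. DESeq2 called 175 genes of all and none of the 9, whose smallest adjusted p there was 0.358. With mouse 41 entered as a female the estimates were lower in males for 9 of 9, with a median of -0.40 and 0 with an unadjusted p under 0.05. With that label edgeR called 1 gene of all for sex and none of the 9. A difference between the sexes was thus not detectable beyond the spread between mice. In the same fit, with mouse 41 labelled male, Xist was not called either (log2 fold change -5.35, edgeR adjusted p = 0.325). The lack of a call for the 9 genes therefore says little.

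Batch 2 libraries were compared with batch 1 in the same fit. The estimates were higher in batch 2 for 9 of 9 genes, by 0.08 (Gjb1, SE 0.47) to 0.58 (Ermn, SE 0.37) on the log2 scale, with a median of 0.22 (49.5% of all genes had a higher estimate), and of 0.20 with mouse 41 entered as a female. Here 0% of all genes were called higher at an adjusted p under 0.1 and 3.35% had an unadjusted p under 0.05, and 0 of the 9 did either. DESeq2 called 24 genes between batches and none of the 9. The genotype effect was also compared between the sexes by an interaction term. It was positive for 8 genes and negative for Ermn (-0.28, SE 1.06), up to 2.05 for Gjb1 (SE 1.08, unadjusted p = 0.0809, edgeR adjusted p = 0.993), with a median of 0.82, and 48.4% of all genes had a positive term. None of the 9 was called, as 0% of all genes were in either direction, and none had an unadjusted p under 0.05 against 2.03% of all genes above 0. The interaction depended on single mice and on the label of mouse 41: its median over the 9 genes was 0.09 with mouse 41 entered as a female (5 genes positive and 4 negative), -1.52 without Wt mouse 12 and 2.58 without Tg mouse 67, the 1 Tg male of batch 1.

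Other genes of oligodendrocytes were taken from a list of 36, of which 20 could be named under the same selection. The estimate was higher in Tg mice for 20 of 20, beside 49.3% of all genes, with a median log2 fold change of 0.865. edgeR called none of the 20 at an adjusted p under 0.1, where it called 0.00628% of all genes higher. Calls by DESeq2 are not given for this list. Plekhb1, a protein that binds membranes, was at 78.6 to 197 CPM in Wt and 110 to 303 in Tg mice, and Bcas1, a protein of early myelinating cells, at 43.6 to 147 and 60.2 to 263 CPM. Tspan2, a tetraspanin of myelin, was at 24.9 to 58.9 CPM in Wt and 38.1 to 103 in Tg mice. Apod, a secreted lipid carrier, was at 12.5 to 73.8 CPM in Wt and 31.2 to 113 in Tg mice. Qdpr, an enzyme that recycles tetrahydrobiopterin, was at 50.4 to 99.9 and 54.9 to 131 CPM, and Stmn4, a microtubule protein also found in neurons, moved over the narrowest range, 67.7 to 80.5 CPM in Wt and 72.9 to 103 in Tg mice. With genotype means subtracted, the correlation of the 20 with the mean of the 9 ran from 0.65 to 0.99 (median 0.93, 12 mice), and none of the 20 was at 0 in any mouse.

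Of the transcription factors of the lineage 2 of 9 listed were named, Nkx6-2 (2.66 to 9.69 CPM in Wt and 4.86 to 17.2 in Tg mice) and Nkx2-2 (1.69 to 3.44 and 2.01 to 6.01 CPM). Of the genes of precursors and early oligodendrocytes 2 of 10 were named. Enpp6, a marker of newly formed oligodendrocytes, had a log2 fold change of 0.77 (SE 0.34, edgeR adjusted p = 0.684), and Vcan, a proteoglycan of precursor cells, one of -0.23 (SE 0.10, edgeR adjusted p = 0.689). Pmp22, better known from peripheral myelin, was at 8.80 to 19.5 CPM in Wt and 9.16 to 21.7 in Tg mice.

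The genes most like the 9 were sought in the whole table, by the correlation with their mean standardized level after genotype means were subtracted. The 6 highest named genes were Ttyh2, a membrane protein of the tweety family (r = 0.987), Plekhb1 (0.986), Tmem63a, a mechanosensitive channel (0.982), Tmem88b (0.975), Bcas1 (0.975) and Arsg, a lysosomal sulfatase (0.975), each over 12 mice. Of the 50 genes of the table with the highest values 34 had a name, 10 were on the lists of oligodendrocyte genes and 1 was on the choroid plexus list, and 16 had no name. Among all 15928 genes only 1349 had a name, and these were in effect selected on the difference between Tg and Wt mice. Named genes were thus more frequent among the 50 than among all genes, so likeness to the 9 is not independent of that selection. Only a named gene could be found on a list. By Spearman's rho 4 of the 6 were again among the highest 6. Ttyh2 was at 23.5 to 63.7 CPM in Wt and 30.4 to 96.3 in Tg mice, and Arsg at 11.0 to 23.8 and 9.77 to 40.6 CPM.

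Markers of other cell types in the tissue moved with the 9 genes to different degrees. All 15 choroid plexus markers were named, under the same selection. All 15 had a higher estimate in Tg mice (median log2 fold change 2.10), beside 49.3% of all genes. edgeR called none of the 15 at an adjusted p under 0.1, where it called 0.00628% of all genes higher. Calls by DESeq2 are not given for this list. Their summed level was 106 to 599 CPM in Wt mice (median 213) and 102 to 2373 in Tg mice (median 1841), and 2 of the 15 were at 0 in at least 1 mouse. Their correlation with the mean of the 9 genes, with genotype means subtracted, was 0.74 to 0.93 (median 0.88), beside the 0.65 to 0.99 of the oligodendrocyte genes. The choroid plexus is an epithelium in the ventricles beside the hippocampus and has no oligodendrocytes. Its most abundant gene, Ttr, which encodes the thyroid hormone carrier transthyretin, was at 7.21 and 11.7 CPM in Tg mice 67 and 93, and at 898 to 1581 CPM in the other 5. Mbp was at 1064 and 680 CPM in those 2 mice and at 1631 to 2999 in the other 5. Among Wt mice Ttr was at 371 CPM in mouse 12, 168 in mouse 79, 45.8 in mouse 80, 33.0 in mouse 95 and 16.9 in mouse 41, where Mbp was at 1863, 959, 690, 741 and 565 CPM. The Tg mice fell into separate clusters of Ttr, so the correlations of the choroid plexus markers span those clusters and carry no p. Enpp2, an enzyme made by the choroid plexus and also by oligodendrocytes, was at 76.9 to 160 CPM in Wt mice and at 65.9 to 556 in Tg mice.

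**Figure D4:**
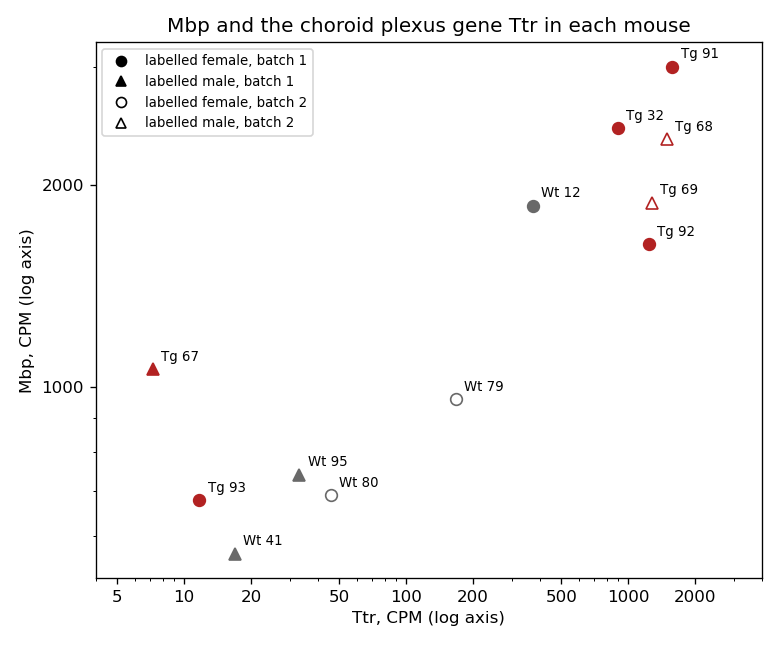
Mbp against the choroid plexus gene Ttr, both in CPM on log axes, with 1 labelled point for each mouse (circles for labelled females, triangles for labelled males, open points for batch 2). Tg mice 67 and 93 lie with the Wt mice 41, 80 and 95 at the lower left, and the other 5 Tg mice lie at the upper right. Wt mice 12 and 79 lie between them in Ttr. In Mbp, mouse 12 (1863 CPM) lies within the range of those 5 Tg mice and mouse 79 (959 CPM) lies below Tg mouse 67 (1064 CPM).

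With a choroid plexus score, the mean log2 CPM of the 15 markers, added to the model of all 12 mice, the 9 log2 fold changes between Tg and Wt were 0.02 to 0.34, with a median of 0.14 and 0 of 9 at an unadjusted p under 0.05. The score comes from the same libraries as the 9 genes. Its 15 markers were named under the same selection on the difference between Tg and Wt mice, and all 15 had a higher estimate in Tg mice. The score is therefore not independent of genotype, and nothing is read from the smaller estimates beside it. The part that the dissection of the piece had in the values of the 9 genes was not tested.

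**Figure D5:**
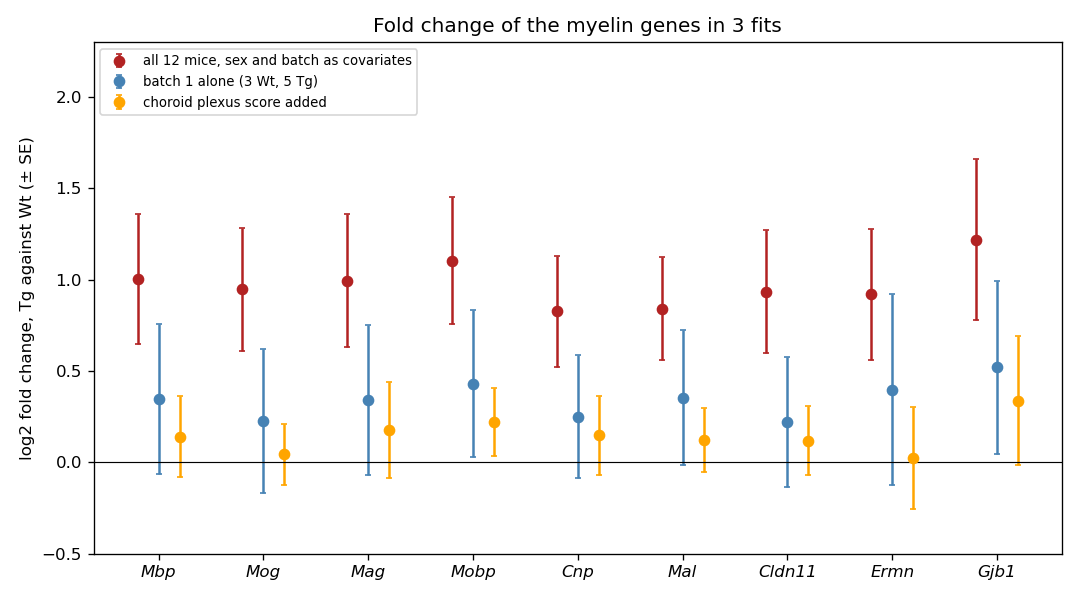
Log2 fold change of the 9 genes between Tg and Wt mice (points, with bars of ± SE) in 3 fits: all 12 mice with sex and batch as covariates, batch 1 alone with sex as a covariate, and the first fit with a choroid plexus score added. The 9 estimates lie between 0.83 and 1.22 in the first fit, between 0.22 and 0.52 in batch 1 and between 0.02 and 0.34 with the score. The markers of the score were in effect selected on the same contrast.

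Astrocytes, microglia and neurons had fewer named markers. Of 10 astrocyte markers 5 were named, and Slc1a2 and Slc1a3, the glutamate transporters, were at 1929 to 2666 and 550 to 614 CPM in Wt and at 1609 to 2067 and 426 to 634 CPM in Tg mice. Both had a lower estimate in Tg mice (log2 fold changes of -0.32 and -0.19), while the other 3, Gfap (1.011), Agt (0.75) and S100b (0.31), named here after their values were seen to complete the list, had a higher one. The correlation of the 5 with the mean of the 9 genes ran from -0.58 to 0.82. Of 12 microglial markers 3 were named, with C1qb and C1qa, subunits of complement, at 23.7 to 34.3 and 23.3 to 30.8 CPM in Wt and 28.4 to 41.9 and 27.4 to 38.0 in Tg mice. The correlation of these 3 with the mean of the 9 genes was between -0.08 and 0.47. Of 14 neuronal markers 5 were named, 4 with a lower estimate in Tg mice (median log2 fold change -0.25), and their correlation with the mean of the 9 ran from -0.83, for Camk2a, to 0.33. Camk2a, a kinase of excitatory neurons, was at 2026 to 3053 CPM in Wt and 1616 to 2342 in Tg mice, and Slc17a7, the vesicular glutamate transporter of cortex and hippocampus, at 948 to 2059 and 973 to 1503 CPM. Prox1, a marker of granule cells of the dentate gyrus, was at 10.02 to 15.96 CPM in Wt and 11.7 to 23.1 in Tg mice. It was the only 1 of 5 listed hippocampal markers with a name. Its estimate was higher in Tg mice (log2 fold change 0.38), and its correlation with the mean of the 9 was 0.675. None of the markers in these lists was called in edgeR at an adjusted p under 0.1, where 0.00628% of all genes were called higher and 0% lower. No marker of endothelial and mural cells (8 listed) or of cortical layers (5 listed) was named.

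App fell into separate ranges within the Tg group. In Tg mice 32, 91 and 92 App was at 2991 to 3393 CPM and Mbp at 1631 to 2999, and in Tg mice 67, 68, 69 and 93 App was at 5140 to 5727 CPM and Mbp at 680 to 2338. Of the 9 genes 0 separated those 3 mice from the other 4, in either direction, as 6.25% of all genes did. As the App values fell into separate clusters, no correlation is given.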

How the data were processed

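Brain RNA of 12 mice was measured by bulk RNA-seq on an Ion Torrent instrument. Per the study's methods, the authors aligned reads to mm10 with STAR and Bowtie2, counted unique reads per gene, removed low genes and deposited the raw counts of 15928 genes. A second deposited table holds library sizes, batches and the normalization factor, a ratio the authors computed with edgeR. Library batch and sex came from the labels and that table. No column was left unused (0), and the authors' own fold changes and p-values were not used.

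Rows were named by solving the 12 size factors and matching mean normalized counts to the mean in the study's table within a relative difference of 1e-09. Of 1684 genes 1349 matched (largest difference 4.3e-10), with 0 matches after shifted means in 10 trials and 7 neighbours out of alphabetical order. Positions are from GENCODE M21 (GRCm38, also called mm10), and CPM per kilobase used the union of exons.

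edgeR 4.0.16 (R 4.3.3) fitted a quasi-likelihood model with sex, batch and genotype to all genes (TMM normalization, filterByExpr, which kept 15928, common biological coefficient of variation 0.201). Benjamini-Hochberg adjustment ran over all genes, with a threshold of 0.1. DESeq2 1.42.0 was the alternative. The procedure was tested on simulated counts of 15928 genes, 200 of them changed, each gene drawn independently. At the 0.1 threshold edgeR recovered 89% of the 2-fold and 99% of the 4-fold changes, with 24 false calls. DESeq2 recovered 92% and 99%, with 63 false calls. Recovery of genes that move together from mouse to mouse, as the 9 genes do, was not tested. The shares recovered therefore do not apply to the 9 genes. Their log2 fold changes between Tg and Wt mice were 0.83 to 1.22, with SE of 0.28 to 0.44 and edgeR adjusted p of 0.611 to 0.637. Log2 CPM used a prior count of 2. No source says that replicates were other than separate mice. Depth was 15768135 to 20996174 counts per mouse.

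The 9 genes and all lists were chosen with earlier results of these data known. Values are given per mouse for Mbp, Mog, Mag, Mobp and Cnp, and as ranges for the rest. Also named are the 6 most abundant other oligodendrocyte genes, the 6 genes most like the 9, the most abundant pair of each other marker list, and App, Xist and Ttr as checks. A listed gene, and the fit that used it, are not reported here.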

Additional observations from a re-analysis of the deposited data

Results flagged for a closer look

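Gjb1 in Wt mouse 12 was at 20.3 CPM, while the nearest of the other 4 Wt mice was at 7.74 CPM. In CPM the gap was 0.783 of the whole Wt range, past Dixon's limit for 5 samples (0.71). In log2 CPM the deviations of Gjb1 were 0.775 in mouse 12, -0.604 in mouse 79 and -1.451 in mouse 80. On that scale, which the fold changes use, the gap is a smaller share of the range and not past the limit. Of the 18 sets of CPM values examined (9 genes in 2 genotypes) this was the only 1 past the limit, and chance gives about 1 in 20. The same mouse was the highest Wt mouse in 8 of the 9 genes.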

How the results depend on the processing

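For the 9 genes and 25 settings (225 values), all 225 values of the Tg to Wt fold change were above 0 and none passed the threshold. In 2 of the settings, no filter and a threshold of 0.05, the values were identical and no call could be gained, and the direction is that of the contrast from which the names were recovered. The median log2 fold change was 0.141 with the choroid plexus score and 0.347 in batch 1 alone, against 0.948. The markers of that score were in effect selected on the same contrast. Chosen after the data were seen, mouse 41 entered as a female gave 0.637 in batch 1 alone and an interaction median of 0.087, against 0.821. Left out in turn, single mice gave 0.81 (without Tg mouse 91) to 1.289 (without Wt mouse 12). The median over the 9 genes for males against females ran from -0.737 (without Wt mouse 80) to -0.367 (without Wt mouse 12), that for batch 2 against batch 1 from 0.021 (without Tg mouse 68) to 0.516 (without Wt mouse 80), and that for the interaction from -1.515 (without Wt mouse 12) to 2.575 (without Tg mouse 67). With the choroid plexus score the sex median was -0.018 (4 genes higher and 5 lower in males) and the batch median -0.27. Over all genes DESeq2 called 56 for genotype and 175 for sex where edgeR called 1 and 0, and edgeR without Wt mouse 95 called 540 for sex, none of them among the 9. The causes of these changes were not tested. No paired analysis was possible because Wt and Tg mice share no replicate numbers. Alternatives planned for correlations with App and Ttr were not run, since those values fall into separate clusters. The spread between mice within a genotype was 0.697 on the log2 scale, and how far depth adds to it was not tested.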
